A study of Mus musculus with 12 samples.

Results

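The subject is the baseline transcriptome of the control cells of an RNA-seq study of the ubiquitin ligase gene Rnf19a: the 3 untreated control libraries of 12 libraries in all, chosen by their label alone. The labels give all 12 libraries as B16F10 tumour cells, a mouse melanoma cell line, in 4 groups of 3: control (guide sgNC) and sgRnf19a, each untreated or with a treatment given as IR. The control cells described here carried the guide sgNC and had no IR. The untreated sgRnf19a libraries, which share the cell line and carry the Rnf19a guide instead, are set beside them only as a second reading of the same genes. Whether the control cells were a pool or a clone, and whether the 3 libraries came from separate cultures, is not given in the sources used here, so the SDs below measure only the spread between these libraries, which may be technical. The control libraries held 62681644, 64988843 and 71265107 counts.

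A cultured tumour line keeps part of the gene programme of the cell it arose from. In pigment cells the factors MITF, SOX10 and PAX3 switch on the enzymes and structural proteins of the melanosome, where melanin is made. Most genes of other tissues lie in closed chromatin in such a cell, and large families used by 1 tissue only, such as the olfactory receptors of the nose, are normally silent. Housekeeping genes and many growth genes start from promoters rich in CpG, while strongly tissue-specific genes often start from promoters poor in CpG, some with a TATA box.

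Levels are FPKM, the authors' read counts per kilobase of transcript and scaled to the depth of the library, so levels of different genes can be set side by side. A gene counts as expressed at 1 FPKM or more in all 3 control libraries, silent at 0 in all 3, and intermediate otherwise. Of 21915 protein-coding genes, 9827 (44.8%) were expressed, 5987 (27.3%) were intermediate and 6101 (27.8%) were silent. The median protein-coding gene had a mean of 0.448 FPKM, and the median expressed gene 8.52 FPKM. At least 10 FPKM was reached by 4354 genes, at least 100 FPKM by 337, and 22 genes lay a further order of magnitude up. A level of 0 has a limit: 3 read pairs, worth 12 counts here, would give a transcript of 2 kb 0.0916, 0.0881 and 0.0814 FPKM in control 1, 2 and 3, for counting error only. As a check of the other end of the scale, 93 of 96 genes for shared machines of the cell (proteasome, CCT chaperonin, RNA polymerase II, MCM, splicing factor SF3B, ARP2/3, COP9 signalosome, eIF3) were expressed. The 3 others are proteasome subunits that other tissues or interferon use: Psma8 of testis (0.101 ± 0.108 FPKM, SD, n = 3), Psmb11 of thymus (0 in all 3) and the immunoproteasome subunit Psmb9 (0.491 ± 0.0398 FPKM).

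Promoters of 6 genes at both ends of this scale are shown here because the classes differed in sequence content. Each line is the 120 bases before a RefSeq start site (build GRCm38.p6, read 5′ to 3′ on the gene's strand, the first start listed for the gene). Tyr (tyrosinase, minus strand, chr7:87493513-87493632) and Tyrp1 (tyrosinase-related protein, plus strand, chr4:80834093-80834212) are pigment genes at 0 in these libraries. Krt18 (chr15:102028096-102028215), Vim (chr2:13574191-13574310) and Hba-a1 (chr11:32283552-32283671), all on the plus strand, and Eef1a1 (minus strand, chr9:78481725-78481844) are among the highest. Capitals mark the motifs found: CATGTG (the core of the M-box that MITF can bind) in Tyr and Tyrp1, TATAA on the gene's strand in Krt18, Vim and Hba-a1, CACCC in Hba-a1, and GGGCGG in Eef1a1, where it lies on the opposite strand. TATAA was searched on the gene's strand in all 6 lines, CATGTG in the pigment genes, CACCC in Hba-a1 and GGGCGG in the other 3, each on both strands. All these searches covered the full 120 bases shown.
Tyr: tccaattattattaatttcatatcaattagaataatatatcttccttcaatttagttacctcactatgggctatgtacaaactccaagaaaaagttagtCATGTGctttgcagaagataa
Tyrp1: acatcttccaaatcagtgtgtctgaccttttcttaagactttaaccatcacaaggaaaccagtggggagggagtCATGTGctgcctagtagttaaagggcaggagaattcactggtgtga
Krt18: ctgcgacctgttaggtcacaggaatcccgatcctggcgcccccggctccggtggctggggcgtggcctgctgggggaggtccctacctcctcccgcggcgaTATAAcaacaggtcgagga
Vim: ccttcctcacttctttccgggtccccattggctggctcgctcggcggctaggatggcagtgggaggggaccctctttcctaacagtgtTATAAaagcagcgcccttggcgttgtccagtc
Hba-a1: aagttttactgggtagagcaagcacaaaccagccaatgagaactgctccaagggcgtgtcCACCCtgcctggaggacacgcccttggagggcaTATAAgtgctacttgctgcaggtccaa
Eef1a1: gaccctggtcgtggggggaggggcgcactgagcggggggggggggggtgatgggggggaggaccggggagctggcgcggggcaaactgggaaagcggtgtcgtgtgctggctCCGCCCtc

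A RefSeq promoter was matched by symbol for 16686 of 21888 protein-coding symbols, and 5202 had none. Over the 250 bases before the start, the ratio of CpG observed to CpG expected from base content had a median of 0.766 in 7916 expressed genes, 0.438 in 4348 intermediate genes and 0.169 in 4422 silent genes. The median share of G and C was 60.4%, 55.6% and 45.2% in the same order. TATAA between 45 and 21 bases before the start was found in 1.63% of expressed, 4.90% of intermediate and 9.91% of silent genes, against 4.67% of all matched genes. Among the 261 genes of 100 FPKM or more it was found in 8.05%. The TATAA printed for Krt18 lies closer to the start than this window and is not counted in these shares. GGGCGG, a box bound by SP1, was found on either strand in 63.1% of expressed and 13.4% of silent genes, against 44.3% of all. CATGTG was found on either strand in 6.66% of expressed and 15.4% of silent genes, against 9.80% of all, so its presence in Tyr and Tyrp1 is not rare. CACCC was found in 56.4% and 42.7%, against 53.6% of all. Olfactory and vomeronasal genes made up part of the silent class, and without them the 3261 silent genes had a median CpG ratio of 0.199 and TATAA in 12.1%. Of the genes printed above, Tyr had a ratio of 0.00, Hba-a1 0.22, Tyrp1 0.31, Vim 0.38, Krt18 0.53 and Eef1a1 0.65. The expressed Hba-a1, Vim and Krt18 thus lay below the lower quartile of their own class, 0.595. Promoters of Krt8, Rhox5 and Hbb-bs were searched in the same way and are not shown. Krt8 (ratio 0.14) and Rhox5 (0.36) held neither GGGCGG nor TATAA, and Hbb-bs (0.13) held CACCC and TATAA. Of 13057 matched genes with coordinates in the deposited table, 153 (1.17%) had a RefSeq start more than 1 kb outside the deposited gene, Rhox5 among them, whose promoter is not shown. These are descriptions of letters in a window, not of bound sites.

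**Figure D1:**
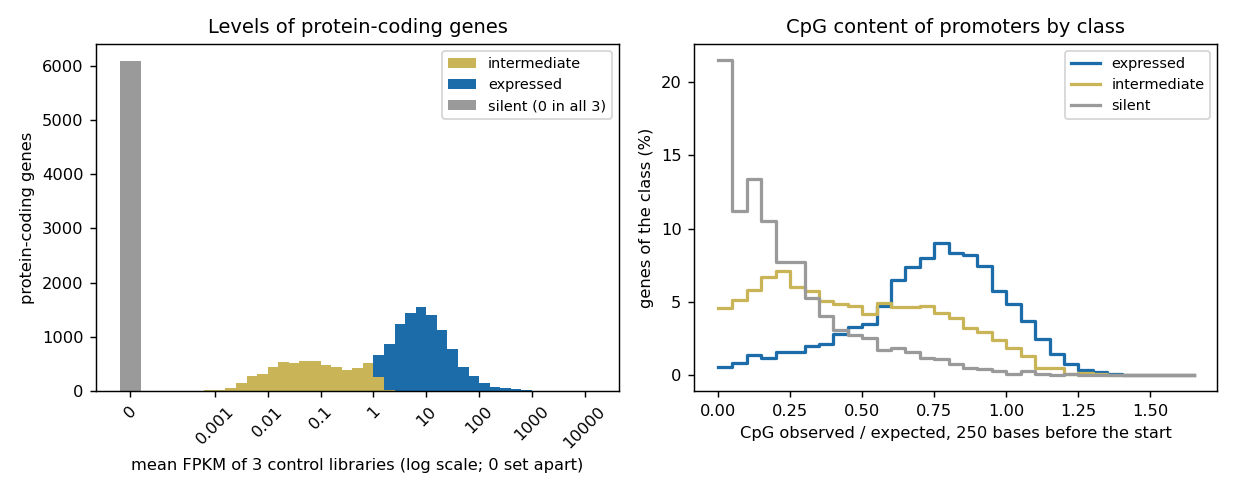
Left, protein-coding genes by mean FPKM over the 3 control libraries (log axis, with genes at 0 set apart at the left), coloured by class; 6101 genes stand at 0 and the expressed genes form 1 peak with a median of 8.52 FPKM. Right, the share of each class (percent of its genes) by CpG observed over expected in the 250 bases before the start; the silent class is highest near 0 and the expressed class has a median of 0.766.

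The 3 libraries were close but not equal. Over 6560 named protein-coding genes with a mean of 5 FPKM or more, the highest library was a median of 1.23 times the lowest, 90% of the genes were within 1.59 times, and 141 genes reached 2 times or more. In 92 of those 141 genes control 3 was the library farthest from the median, in 42 it was control 2 and in 7 control 1. The departure of control 3 moved with transcript length. For genes with under 1 kb of exons the median log2 level relative to the mean of the 3 libraries was 0.031 in control 1, -0.304 in control 2 and 0.272 in control 3, and for genes over 10 kb it was 0.024, 0.094 and -0.103. Control 3 was thus highest for short transcripts and lowest for long ones, and control 2 the reverse. Ribosomal RNA took 0.223%, 0.381% and 0.669% of the counts of control 1, 2 and 3. The part of either in the levels below was not tested.

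**Figure D2:**
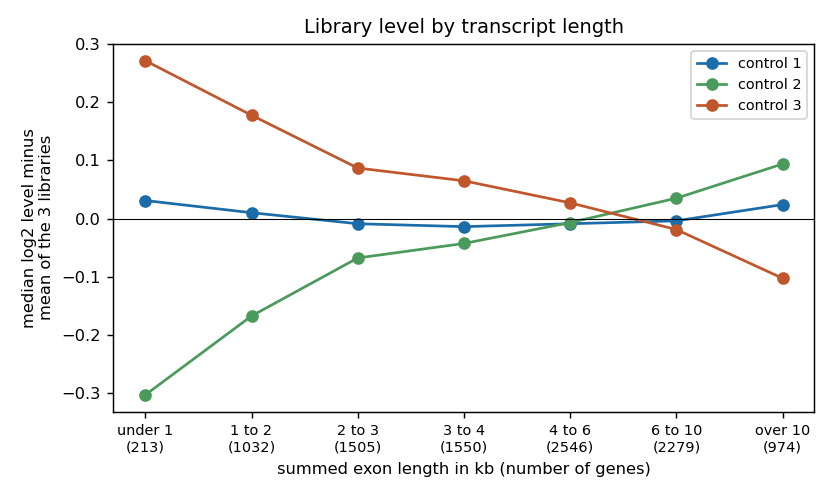
Median log2 level of protein-coding genes with a mean of 1 FPKM or more relative to the mean of the 3 libraries (y axis, log2), by summed exon length in kb (x axis, with the number of genes in each class), 1 line per control library. Control 3 runs from 0.272 for the shortest to -0.103 for the longest genes, control 2 from -0.304 to 0.094, and control 1 stays within 0.031 of 0.

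The 10 genes with the widest ranges differed in order across the libraries. Mki67, the proliferation marker, was at 72.3, 78.2 and 24.1 FPKM, and the kinetochore genes Cenpe (27.7, 29.0 and 8.13 FPKM) and Cenpf (17.6, 17.6 and 4.83 FPKM) had the same order, with control 3 the lowest. Acta2, smooth muscle actin, had the widest range of all genes of 5 FPKM or more that carry a name: 0.860, 11.2 and 4.25 FPKM, a ratio of 13.1. Next came Brms1 (2.40, 1.88 and 11.8 FPKM), Rps27rt (34.6, 25.2 and 146 FPKM), Ppih (17.7, 6.62 and 26.7 FPKM), Lyz2 (2.49, 6.84 and 9.80 FPKM), Gapdh (78.2, 24.5 and 20.7 FPKM) and Sarnp (16.2, 4.73 and 13.2 FPKM). Gapdh and Rps27rt have near-identical copies elsewhere in the genome, so their counts are uncertain. At the other end stood the polymerase subunit gene Pole3 (26.9, 26.9 and 27.0 FPKM), the histidine hydroxylase gene Riox2 (6.25, 6.23 and 6.21 FPKM), the mitochondrial fusion gene Mfn1 (7.80, 7.78 and 7.75 FPKM), Nras (30.8, 31.0 and 31.0 FPKM) and Actg1 (969, 964 and 963 FPKM), each with a ratio of at most 1.01.

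The sum of protein-coding FPKM was carried by few genes: 244 genes made up the upper part that reaches 50% of it. The 10 highest genes took 22.3%, 24.8% and 16.2% in control 1, 2 and 3, and the 100 highest took 41.5%, 43.0% and 37.0%. The 13 mitochondrially encoded genes were all expressed, from 452 to 12353 FPKM with a median of 3864 FPKM, with 22.3%, 25.3% and 15.8% of the sum. Control 3 was the lowest there and the highest in ribosomal protein genes, which took 8.74%, 6.95% and 10.6% of the sum. Of 84 ribosomal protein genes 81 were expressed, with a median of 220 FPKM and a highest mean of 1590 FPKM. Of 100 histone genes 16 were expressed, and their highest mean was 346 FPKM.

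Outside these 3 classes the 30 highest genes were mostly genes of protein synthesis, chaperones, cytoskeleton and glycolysis. The translation elongation factor Eef1a1 led with 5625, 5507 and 5230 FPKM (5454 ± 203, SD, n = 3), the 6th highest of all protein-coding genes. The chaperones Hsp90ab1 (1907 ± 184 FPKM) and Hspa8 (1202 ± 76.7 FPKM) and the nuclear protein prothymosin alpha, Ptma (1158 ± 114 FPKM), came next. The tubulins Tuba1b (1040 ± 141 FPKM), Tubb5 (614 ± 28.2 FPKM) and Tuba1a (472 ± 30.2 FPKM) and the actins Actg1 (965 ± 3.29 FPKM) and Actb (891 ± 84.0 FPKM) stood with the intermediate filament gene Vim (622 ± 9.0 FPKM). Further genes of protein synthesis and folding were Eef2 (884 ± 102 FPKM), Eif5a (598 ± 113 FPKM), Hspd1 of mitochondria (470 ± 63.9 FPKM), the cyclophilin Ppia (480 ± 155 FPKM) and the nucleolar gene Npm1 (899 ± 120 FPKM). Ubb, which encodes ubiquitin, was at 703 ± 27.1 FPKM, and the RNA-binding protein gene Hnrnpab at 454 ± 74.8 FPKM. Also among the 30 were Tpt1 (457 ± 102 FPKM) and the ferritin light chain gene Ftl1 (927 ± 201 FPKM).

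Glycolytic enzymes took 5 of the 30 places: Ldha (825 ± 67.7 FPKM), Eno1 (770 ± 67.1 FPKM), Pkm (730 ± 16.1 FPKM), Aldoa (507 ± 23.7 FPKM) and Pgk1 (507 ± 36.1 FPKM). Secreted or membrane-linked genes were Lgals1, a galectin (969, 714 and 1291 FPKM), S100a11 (784, 693 and 799 FPKM) and B2m, the light chain of MHC class I (652, 391 and 565 FPKM). Control 2 was the lowest of the 3 libraries for each of these, all of which have short transcripts. Another 3 places went to the adult globins Hbb-bs and Hba-a1 and the homeobox gene Rhox5, described further on. Of the 30 genes 22 were among the 30 highest in each control library taken alone, and 25 were among the 30 highest of the untreated sgRnf19a libraries by mean.

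The label B16F10 was set against its lineage genes. Of 20 melanocyte genes 3 were expressed (15%, against 44.8% of all protein-coding genes), with a list median of 0.0306 FPKM. The pigment enzymes Tyr and Tyrp1, the melanosome genes Mlana, Slc45a2 and Oca2 and the receptor Gpr143 were at 0 in all 3 libraries. Dct was at 0, 0 and 0.00145 FPKM, and Pmel, the fibril protein of the melanosome, at 0.108, 0.179 and 0.121 FPKM. Sox10 was at 0.0264, 0.0735 and 0.0297 FPKM. The 3 expressed members were Gpnmb (10.2, 10.5 and 10.3 FPKM), which macrophages and bone cells also use, Pax3 (3.63, 3.51 and 2.90 FPKM) and Mitf (2.39, 2.12 and 1.67 FPKM). Mitf was under the median expressed gene, and the gene symbol sums its pigment-cell and other isoforms. The defining markers of melanoma cells were thus at or near 0, and the libraries go against the labelled cell type; they are named only as the control libraries below, with no other cell type name. The untreated sgRnf19a libraries matched in this: Tyr, Tyrp1 and Mlana were at 0 there too, and Pmel was at 0.0732, 0.0237 and 0.0907 FPKM.

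Simple-epithelium genes were split. The keratins of simple epithelia were high: Krt8 at 205, 178 and 220 FPKM, Krt18 at 215, 184 and 196 FPKM and Krt19 at 111, 71.6 and 80.7 FPKM. Krt8 and Krt18 form the filament pair of such cells, and their means (201 ± 21.3 and 198 ± 15.6 FPKM) were close to each other. Among genes that join epithelial cells, Cdh1 (E-cadherin) was at 0, 0.0434 and 0 FPKM, Epcam at 0.514, 0.307 and 0.445 FPKM and the claudins Cldn4 and Cldn7 at 0 in all 3, while the tight junction gene Ocln was expressed. Also at 0 in all 3 were the factors Ehf and Ovol1, the sorting adaptor Ap1m2, Prom1 and the splicing factor Esrp1. Of 24 listed genes 6 were expressed (25%), the other 3 being the factor Elf3 (9.42 ± 2.19 FPKM), Spint1 (2.24 ± 0.406 FPKM) and Ocln (1.96 ± 0.112 FPKM). Of 20 stratified-epithelium genes Krt13 (17.4, 16.7 and 18.3 FPKM) and Sfn (1.84 ± 0.465 FPKM) were expressed, while Krt5, Krt14, Krt17, Dsg3 and Dsc3 were at 0.

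Of 26 mesenchymal genes 14 were expressed (53.8%, near the 44.8% of all genes) and 0 were silent. Vim led, followed by S100a4 (176, 112 and 200 FPKM), the collagen Col3a1 (49.2, 50.0 and 44.0 FPKM), Col6a1 (31.5 ± 3.11 FPKM), fibronectin Fn1 (28.5 ± 3.40 FPKM) and Col5a1 (16.7 ± 2.29 FPKM). The factors Twist2 (12.1 ± 0.926 FPKM), Twist1 (8.02 ± 1.85 FPKM), Zeb1 (7.56 ± 1.98 FPKM), Snai1 (6.34 ± 1.60 FPKM) and Zeb2 (3.39 ± 0.513 FPKM), known for repressing epithelial junction genes, were expressed, as was N-cadherin, Cdh2 (9.75 ± 0.779 FPKM). The other 12 listed genes were intermediate. By mean, Fap was at 0.00420, Lum at 0.111, Prrx1 at 0.130, Thy1 at 0.228, Dcn at 0.301 and Pdgfra at 0.596 FPKM. Col1a2 (0.828 FPKM) was far under Col1a1 (9.27 ± 2.33 FPKM), although both chains build type I collagen.

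Other lineages were mostly off. Intestinal epithelium had 1 of 24 expressed, with Lgr5, Hnf4a, Fabp1 and Fabp2 at 0. Lung epithelium had 1 of 12, the lipid transporter Abca3 (4.53 ± 0.324 FPKM), with Nkx2-1, Sftpb and Scgb1a1 at 0. Mammary and prostate epithelium had 1 of 12, Csn3 (1.73, 1.0 and 1.44 FPKM), and hepatocyte and pancreas 2 of 12, the fetal liver protein Afp (2.67, 2.32 and 3.45 FPKM) and Ttr (1.49, 3.24 and 2.21 FPKM), with Alb, Ins1 and Ins2 at 0. Neural and glial genes had 3 of 19: the filament gene Nes (26.3 ± 3.89 FPKM), Tubb3 (2.16 ± 0.457 FPKM) and Sox2 (1.61 ± 0.529 FPKM). Muscle had 1 of 13, desmin, Des (4.84 ± 0.646 FPKM), with Myod1, Myog and Myf5 at 0. Endothelium had 2 of 12, Plvap (2.28 ± 0.295 FPKM) and Egfl7 (1.60 ± 0.303 FPKM), with Cldn5 at 0 and Kdr at 0.00647 FPKM by mean. Of 14 germ cell and pluripotency genes none was expressed and 12 were silent, among them Nanog, Dppa3 and Ddx4.

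**Figure D3:**
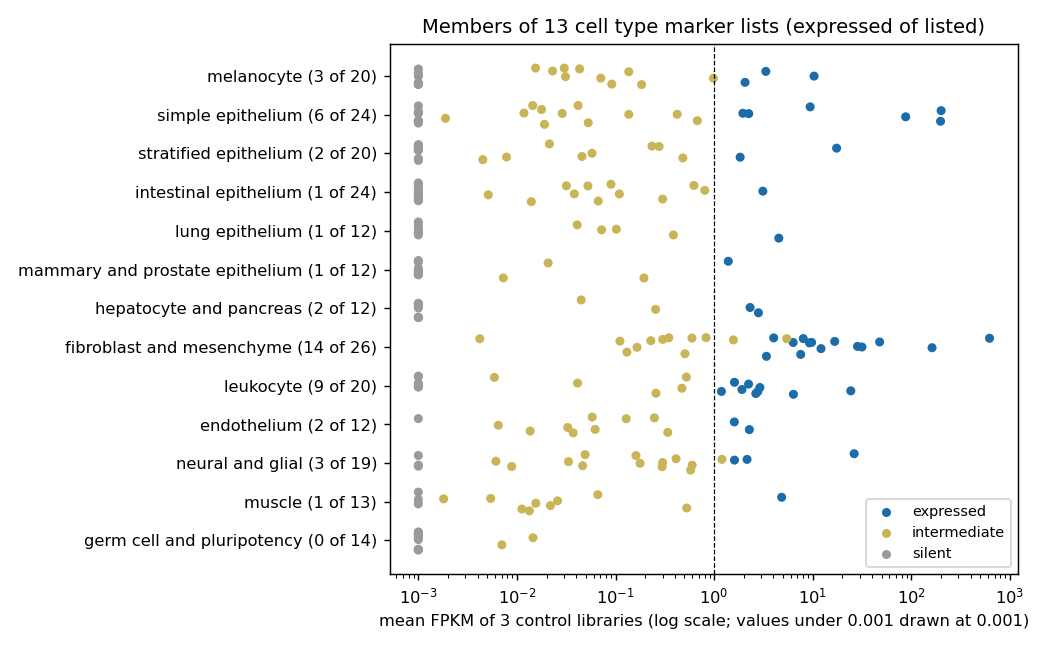
Mean FPKM over the 3 control libraries (log axis; values under 0.001 drawn at 0.001) of each member of 13 cell type marker lists, 1 point per gene, coloured by class, with the number expressed of the number listed beside the name and a dashed line at 1 FPKM. The mesenchymal list has the most points right of the line (14 of 26), the simple-epithelium list has 3 keratins apart at the right of its other members, and the melanocyte list has 3 of 20.

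Blood-cell genes were present at 2 different scales. Of 20 leukocyte genes 9 were expressed (45%, close to the 44.8% of all genes) and the list summed to 47.0, 44.99 and 49.9 FPKM, against 50.8, 56.4 and 58.4 FPKM in the untreated sgRnf19a libraries, where 5 of the 20 were expressed. The lysosomal glycoprotein gene Cd68, which many cell types use, was the highest (30.9, 21.5 and 20.6 FPKM). Lyz2, lysozyme of macrophages, was at 2.49, 6.84 and 9.80 FPKM. The others lay between 1 and 4 FPKM: Laptm5 (2.91 ± 0.619 FPKM), Coro1a (2.78 ± 0.443 FPKM), Fcer1g (2.65 ± 0.0897 FPKM), Tyrobp (2.23 ± 0.474 FPKM), the CSF1 receptor Csf1r (1.92 ± 0.374 FPKM), Adgre1 (F4/80, 1.61 ± 0.341 FPKM) and the myeloid factor Spi1 (1.19 ± 0.173 FPKM). The pan-leukocyte gene Ptprc (CD45) was at 0.191, 0.254 and 0.326 FPKM, and the T, B and dendritic cell genes Cd3e, Cd4, Cd8a, Ms4a1 and Itgax were at 0.

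The adult globins were far higher. Hbb-bs was at 573, 599 and 549 FPKM, Hba-a1 at 431, 478 and 470 FPKM, Hba-a2 at 355, 403 and 379 FPKM and Hbb-bt at 181, 179 and 141 FPKM. Summed, the 4 came to 1540, 1659 and 1538 FPKM. Hba-a1 and Hba-a2, and Hbb-bs and Hbb-bt, are near-identical pairs, so the split within each pair is uncertain while the sum is not affected by it. Alas2, the first enzyme of haem synthesis in red cell precursors, was at 7.56, 8.08 and 9.82 FPKM. The other erythroid genes, a list added after the values were seen, did not share this level: Rhag, Hemgn and Gata1 had means of 0.0255, 0.0205 and 0.0650 FPKM, Klf1 was at 0.186 and Slc4a1 at 0.119 FPKM, and Epb42 and the embryonic globins Hbb-y, Hbb-bh1 and Hba-x were at 0. Slc25a37 (23.0 ± 5.12 FPKM), Fech (5.49 ± 0.246 FPKM), Bpgm (5.08 ± 0.554 FPKM) and Epor (1.92 ± 0.419 FPKM) were expressed.

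The untreated sgRnf19a libraries were not uniform for these genes. The summed globins were at 1818 and 1653 FPKM in sgRnf19a 1 and 2 and at 6.13 FPKM in sgRnf19a 3, and Alas2 was at 9.22, 5.61 and 0.179 FPKM. Of protein-coding genes with a control mean of at least 5 FPKM, 7 in sgRnf19a 3 lay over 10 times under both other sgRnf19a libraries. The same rule gave 1 gene each in sgRnf19a 1 and sgRnf19a 2, and 0, 1 and 0 in control 1, 2 and 3. Of the 7 genes, 5 were the 4 globins and Alas2. Another, Esx1, was near 0 in all 3 sgRnf19a libraries (0.0597, 0.0770 and 0 FPKM). A different set split otherwise. Of 9560 expressed genes that were within 2 times across the control libraries, 40 kept at least 50% of the lowest control level in sgRnf19a 1 and were at under 50% of the lowest of those 4 libraries in sgRnf19a 2 and 3. By the same rule 1 gene was kept in sgRnf19a 2 alone and 0 in sgRnf19a 3 alone. These genes were chosen on their values and are described without a test. They include the macrophage chemokine Ccl3 (97.6, 110 and 115 FPKM in the control libraries, and 109, 3.01 and 20.9 FPKM in sgRnf19a 1, 2 and 3), Tnf (mean 29.3 FPKM in the control libraries, and 28.1, 0.437 and 4.02 FPKM), Cxcl2 (22.7 ± 1.70 FPKM, and 21, 0.168 and 3.25 FPKM), Il1rn (10.7 ± 0.745 FPKM, and 10.8, 0.311 and 1.67 FPKM) and Acod1 (12.1 FPKM, and 12.4, 0.566 and 3.06 FPKM). Leukocyte genes of lower level in the set were Fcer1g, Lcp1, Cd53, Rac2, Ncf1, Hcls1 and Srgn. The set was not of leukocyte genes alone. It also held Raver1 (34.9 ± 6.41 FPKM, and 19.4, 8.27 and 5.78 FPKM), Slco4a1, Mycn, Edn1 and Myo1d. Lyz2 had the opposite order, at 5.01, 28.5 and 31.1 FPKM in sgRnf19a 1, 2 and 3, so leukocyte genes did not move as 1 group. Evenness within 2 times across the 3 control libraries was part of the rule for the set, so it is not a result. What part other cells or RNA have in these genes was not tested. In bulk RNA, fewer cells of a type and less RNA per cell cannot be told apart.

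**Figure D4:**
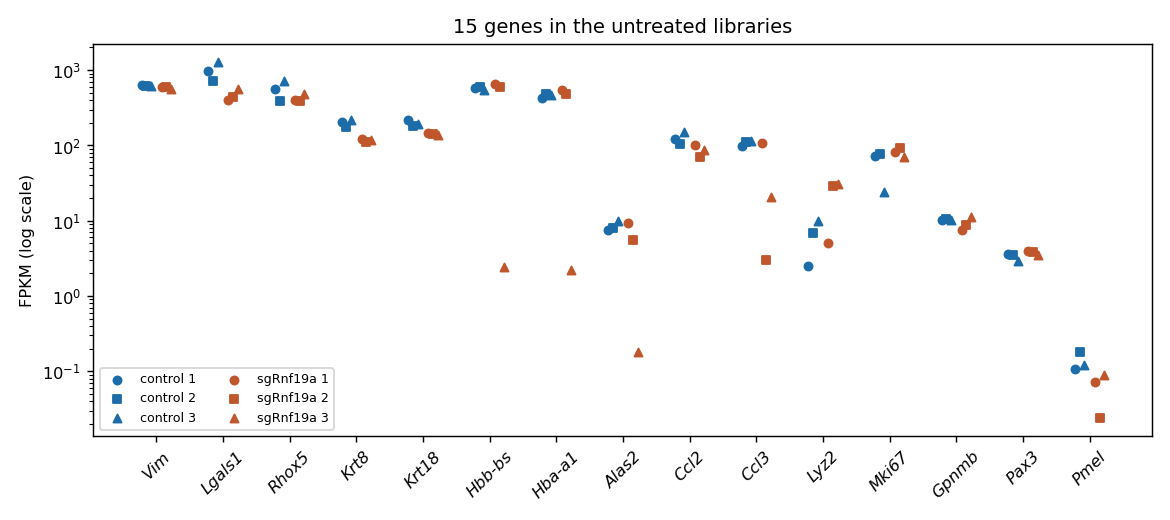
FPKM (log axis) of 15 genes in each untreated library, control in blue and sgRnf19a in orange, with a symbol for the library number. Hbb-bs, Hba-a1 and Alas2 are level in 5 libraries and low in sgRnf19a 3, Ccl3 is near 100 FPKM in 4 libraries and at 3.01 and 20.9 FPKM in sgRnf19a 2 and 3, and Mki67 is lower in control 3 than in the other 5.

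Rhox5, a homeobox gene of the reproductive tract and early embryo on the X chromosome that many mouse tumour lines express, was at 571, 395 and 725 FPKM, the 45th highest protein-coding gene. No other member of the Rhox cluster was expressed: 29 of 34 genes were at 0 and the next highest, Rhox2d, had a mean of 0.0544 FPKM. Y-linked genes were near 0 beside their X-linked partners. Ddx3y was at 0.214, 0.366 and 0.422 FPKM and Ddx3x at 126, 140 and 127 FPKM, Eif2s3y at 0.224, 0.486 and 0.298 FPKM and Eif2s3x at 70.8, 72.9 and 81.8 FPKM, and Kdm5d had a mean of 0.0513 FPKM against 34.9 ± 2.45 FPKM for Kdm5c. Sry, Usp9y and Zfy1 were at 0. Xist, the RNA of the inactive X, was at 0, 0.0339 and 0.117 FPKM. In the sgRnf19a libraries Ddx3y was at 0.280, 0.0379 and 0.0445 FPKM, with sgRnf19a 1 again at the level of the control libraries.

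Of 748 genes in 23 families of surface receptors, adhesion molecules and channels, 166 (22.2%) were expressed and 145 (19.4%) silent, with a median of 0.0487 FPKM; 57 reached 10 FPKM. Of 34 adhesion and proteoglycan genes 25 were expressed (73.5%). Basigin, Bsg, a partner of lactate transporters, was at 189, 155 and 187 FPKM, the tetraspanins Cd9 at 148, 122 and 142 FPKM and Cd63 at 92.9, 85.6 and 117 FPKM, and Ly6e at 138, 124 and 112 FPKM. Integrins, which tie cells to matrix, had 9 of 26 expressed: Itga6 (39.5 ± 1.02 FPKM), Itgb7 (34.4 ± 3.90 FPKM), Itga5 (34.2 ± 2.21 FPKM), Itgb2 (30.1 ± 3.06 FPKM) and Itgav (30.1 ± 0.691 FPKM) led. Itgb2 and Itgb7 are beta chains best known from leukocytes.

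Receptors for growth and developmental signals lay between 33.3% and 57.1% expressed, on both sides of the 44.8% of all genes. Of 57 receptor tyrosine kinases 19 were expressed (33.3%), led by Axl (47.9, 48.0 and 49.4 FPKM), the receptor for GAS6, and the collagen receptors Ddr2 (26.1, 26.9 and 21.8 FPKM) and Ddr1 (14.2, 11.5 and 17.8 FPKM). TGF-beta and BMP receptors had 8 of 14, with Bmpr1a at 26.3 ± 2.29 FPKM, Tgfbr3 at 10.1 ± 0.449 FPKM and Tgfbr1 at 5.51 ± 0.361 FPKM. Wnt receptors and Smoothened, listed together, had 8 of 18, with Smo (12.3 ± 2.27 FPKM), Lrp6 (8.26 ± 0.0312 FPKM) and Fzd6 (7.99 ± 0.770 FPKM) highest, and the Notch pathway 5 of 9, led by Notch2 (9.33 ± 0.351 FPKM).

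Of 6 interferon receptor chains 5 were expressed: Ifnar1 (13.2, 14.5 and 12.7 FPKM) and Ifnar2 (7.51, 7.33 and 7.0 FPKM) for type I interferon, Ifngr1 (11.3, 11.4 and 11.2 FPKM) and Ifngr2 (6.39, 6.30 and 7.58 FPKM) for interferon gamma, and Il10rb. Ifnlr1, the specific chain for type III interferon, had a mean of 0.822 FPKM. The TNF receptor family had 9 of 28 (32.1%), with Tnfrsf1a (39.9, 37.4 and 36.4 FPKM), Tnfrsf12a (30.1, 28.2 and 39.0 FPKM) and Ltbr (18.2, 15.1 and 19.7 FPKM) highest. Cytokine receptors had 18 of 50 (36%), with Il13ra1 (28.1 ± 3.46 FPKM), Il1r1 (12.2 ± 1.57 FPKM) and Il18rap (11.1 ± 1.95 FPKM) highest. Of 15 pattern receptors 6 were expressed (40%, like the former shares under the 44.8% of all genes), led by the lipopolysaccharide receptors Cd14 (19.7, 20.6 and 22.6 FPKM) and Tlr4 (11.5, 8.66 and 9.79 FPKM). Cd14 was at 21.9, 7.14 and 8.78 FPKM in sgRnf19a 1, 2 and 3, the split described for Ccl3. No chemokine receptor of 23 was expressed; the highest, Ccr10, was at 0.382, 1.43 and 0.277 FPKM.

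Uptake and guidance receptors followed. The transferrin receptor Tfrc (57.9, 63.0 and 54.7 FPKM) led 8 of 19 expressed uptake receptors, with Lrp10 (21.7 ± 1.85 FPKM) next. The semaphorin receptor Plxnb2 (75, 72.6 and 78.7 FPKM) led 9 of 21 guidance receptors, with Unc5b (17.1 ± 2.76 FPKM) and Plxna1 (15.4 ± 1.8 FPKM) next. G protein-coupled receptors were mostly off: 7 of 27 adhesion-type receptors were expressed, led by Adgre5 (40.9 ± 3.50 FPKM), 12 of 78 orphan receptors, led by Gprc5a (32.7 ± 3.56 FPKM), 3 of 29 lipid receptors, led by S1pr2 (5.44 ± 0.408 FPKM), and 3 of 58 aminergic, adenosine and purine receptors, none with a mean over 2 FPKM. Junction and channel families also had few expressed members. Claudins had 1 of 25 (Cldn12, 6.17 ± 0.444 FPKM), cadherins 1 of 23 (Cdh2), connexins 3 of 20 (Gja1 among them), potassium channels 5 of 92 (highest Kcnn4, 5.51 ± 0.469 FPKM), sodium and calcium channels 1 of 19 (Cacna1h, 1.77 ± 0.585 FPKM) and transmitter-gated channels 2 of 58 (Chrnb1 and Gabre).

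Ligands were as selective as receptors: 47 of 222 genes in 10 families were expressed (21.2%). Ligands of the EGF receptor had 5 of 11: amphiregulin, Areg (21.7, 19.9 and 17.9 FPKM), Tgfa (4.46 ± 0.328 FPKM), Hbegf (4.37 ± 0.339 FPKM), Ereg (4.08 ± 0.187 FPKM) and Btc (3.10 ± 0.258 FPKM). Of 22 angiogenic and growth ligands, colony-stimulating factors included, 14 were expressed (63.6%), with Vegfa (39.0, 38.8 and 28.1 FPKM), Csf3 (18.3, 19.6 and 19.99 FPKM), Csf1 (17.1, 17.8 and 18.5 FPKM) and the KIT ligand Kitl (17.4, 18.8 and 13.4 FPKM) highest. Of the receptors for these 4 ligands, Csf1r was expressed (1.92 ± 0.374 FPKM), while Flt1 (0.832 FPKM by mean), Csf3r (0.188 FPKM), Kit (0.0302 FPKM) and Kdr (0.00647 FPKM) were not. Csf3 was at 23.1, 4.16 and 8.06 FPKM in sgRnf19a 1, 2 and 3. Of 37 chemokines 10 were expressed, from Ccl2 (123, 105 and 149 FPKM) and Ccl3 down to Ccl5 (1.47 ± 0.346 FPKM); Cx3cl1 (19.6, 20.7 and 19.2 FPKM) and Cxcl1 (10.5, 9.45 and 10.1 FPKM) were level in the sgRnf19a libraries too (17.9, 16.1 and 17.3 FPKM, and 8.58, 9.11 and 7.92 FPKM). Genes listed as TGF-beta family ligands had 5 of 27 (Tgfb1 17.2 ± 2.11 FPKM, Bmp1 12.6 ± 0.603 FPKM and Tgfb3 6.57 ± 0.183 FPKM highest). Bmp1 encodes a protease despite its name. Semaphorins had 5 of 20 (Sema4b 7.21 ± 0.134 FPKM highest), ephrins 3 of 8 (Efna1 16.3 ± 1.8 FPKM highest) and interleukins 4 of 38. Genes named Fgf had 1 of 22, Fgf11 (1.64 ± 0.446 FPKM), which encodes an intracellular protein and not a secreted ligand. No Wnt ligand of 19 was expressed, the nearest being Wnt7b (1.09, 0.877 and 0.801 FPKM). No type I interferon of 18 was expressed: 15 were at 0, and Ifnb1 was at 0.335, 0.204 and 0.302 FPKM.

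**Figure D5:**
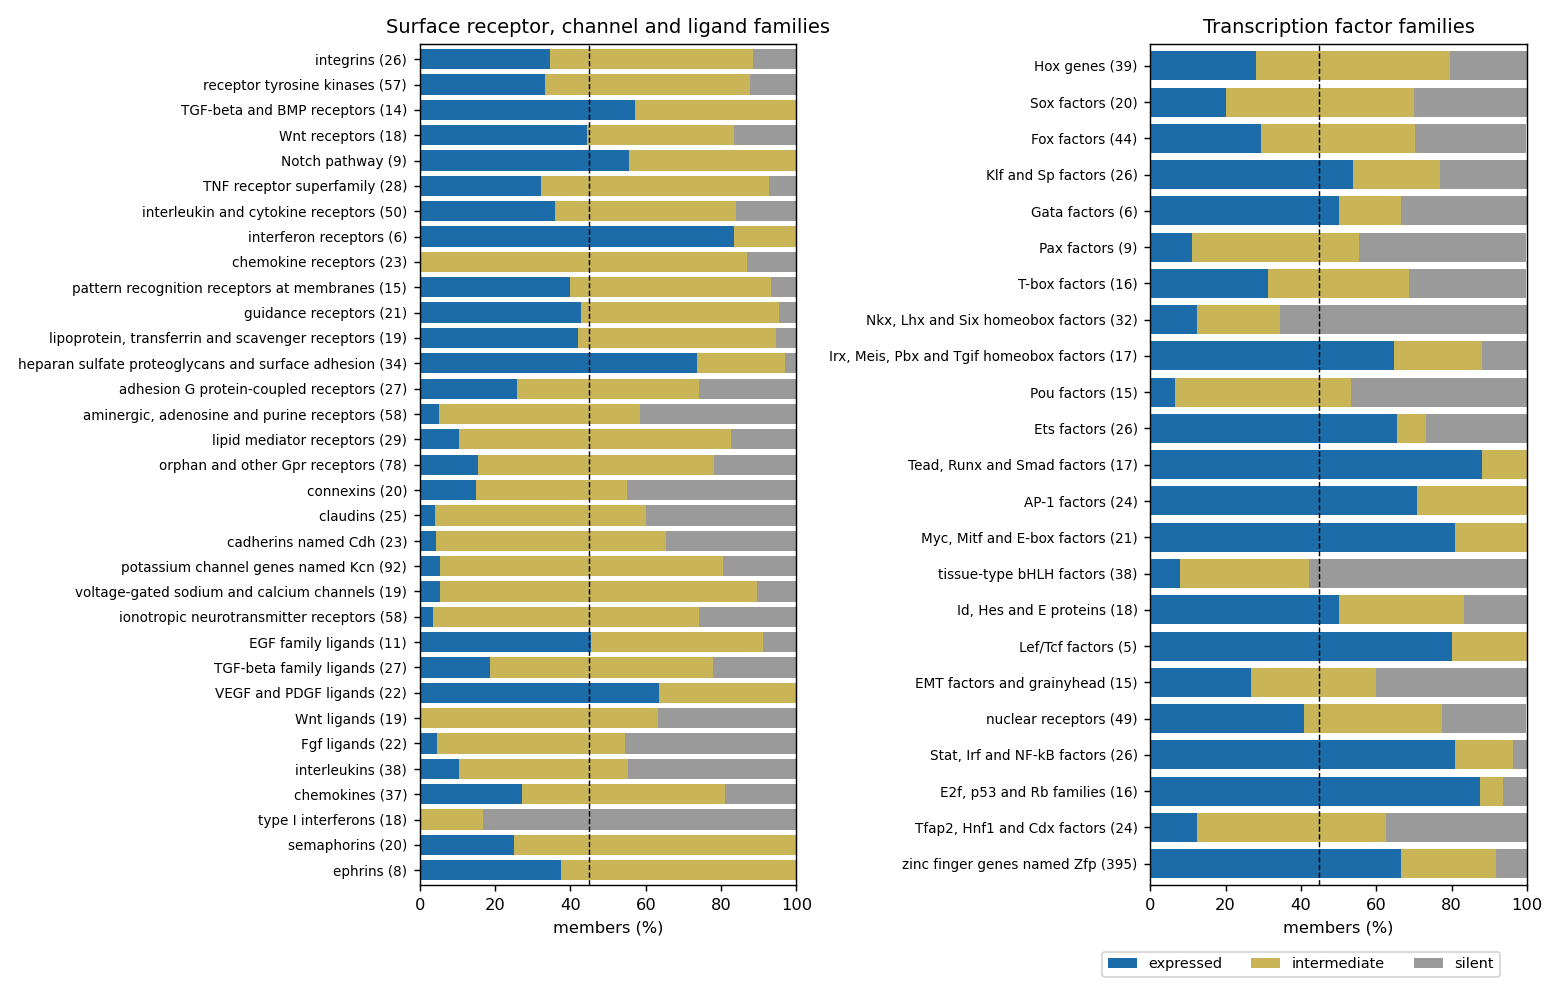
Share of members (percent, x axis) that were expressed, intermediate and silent in the 3 control libraries, for 33 families of receptors, channels and ligands (left) and 23 families of transcription factors (right), with the number of members in brackets; the dashed line is the share of expressed genes among all protein-coding genes, 44.8%. Adhesion genes and interferon receptors lie right of the line on the left, and tissue-type bHLH, Pou and Pax factors lie well left of it on the right.

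Transcription factors were expressed more often than surface receptors: 473 of 895 genes in 23 families (52.8%), with 166 silent (18.5%). Of all protein-coding genes 44.8% were expressed and 27.8% silent. The largest family, genes named Zfp, had 263 of 395 expressed (66.6%). Without this family, the share of expressed factors was under the 44.8% of all protein-coding genes. Of 1360 protein-coding genes with a factor family in the deposited table, 811 were expressed (59.6%). Broad regulators led the level ranking. Beta-catenin, Ctnnb1, which is both an adhesion protein and a co-factor of TCF, was at 132, 127 and 141 FPKM, the stress factor Atf4 at 125, 118 and 144 FPKM, the bHLH inhibitor Id1 at 80.0, 85.7 and 116 FPKM and Trp53 at 80.4, 92.0 and 97.0 FPKM. The E2F partner Tfdp1 (68.6 ± 5.45 FPKM), the Ets factor Etv4 (53 ± 6.51 FPKM), TAZ, Wwtr1 (52.7 ± 2.30 FPKM), Zfp106 (50.9 ± 8.53 FPKM) and Zfp207 (48.0 ± 4.61 FPKM) followed. The other 6 of the 15 highest were Zfp36l2 (44.8 ± 5.85 FPKM), an RNA-binding protein despite its name, E2f4 (40.4 ± 4.57 FPKM), Id3 (36.9 ± 10.5 FPKM), Junb (35.8 ± 9.45 FPKM), Srebf2 (34.7 ± 3.36 FPKM) and Sp3 (34.4 ± 2.26 FPKM). Junb was at 32.9, 28.1 and 46.4 FPKM, with control 3 the highest, as it was for Id1.

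Families that most cells use were largely on: Tead, Runx and Smad factors with their co-factors 15 of 17, E2f, p53 and Rb families 14 of 16, Stat, Irf and NF-kB factors 21 of 26 (Stat6 23.0 ± 1.35, Stat3 18.0 ± 0.250 and Nfkb2 17.1 ± 2.15 FPKM highest), Myc, Mitf and E-box factors 17 of 21, AP-1 factors 17 of 24 (Fosl1 at 26.8 ± 2.25 FPKM after Atf4 and Junb) and Ets factors 17 of 26. Zinc finger genes named Zfp had 263 of 395 (66.6%) with a median of 2.28 FPKM, so most were on at a low level. Nuclear receptors had 20 of 49, led by Nr1h2 (15.3 ± 1.60 FPKM), Thra (14.4 ± 0.769 FPKM) and Rxrb (12.7 ± 1.33 FPKM).

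Families that mark tissues and body position differed. Irx, Meis, Pbx and Tgif homeobox factors had 11 of 17 expressed (64.7%), led by Pbx2 (13.4 ± 2.8 FPKM), Tgif2 (11.1 ± 0.968 FPKM) and Tgif1 (10.2 ± 1.93 FPKM), above the 44.8% of all genes, and most of the others lay under it. Tissue-type bHLH factors had 3 of 38, Twist2, Twist1 and Atoh8 (2.66 ± 0.412 FPKM), with 22 silent. Nkx, Lhx and sine oculis-type factors had 4 of 32, with Six4 (5.65 ± 0.950 FPKM), Isl1 (3.41 ± 0.459 FPKM) and Six5 (1.62 ± 0.228 FPKM) among them and 21 silent. Pou factors had 1 of 15, the widely used Pou2f1 (4.43 ± 0.484 FPKM), and Pax factors 1 of 9, Pax3. Sox factors had 4 of 20: Sox12 (11.7 ± 1.02 FPKM), Sox4 (6.67 ± 0.883 FPKM), Sox9 (4.64 ± 0.630 FPKM) and Sox2. Fox factors had 13 of 44, with the endoderm factor Foxa2 (7.02, 6.62 and 7.84 FPKM) and the general factors Foxk2 (23.7 ± 3.83 FPKM), Foxm1 (14.7 ± 0.435 FPKM) and Foxp4 (14.6 ± 2.43 FPKM). Gata factors had 3 of 6 (50%), Gata2 (5.48 ± 0.705 FPKM), Gata6 (1.68 ± 0.168 FPKM) and Gata3 (1.37 ± 0.0308 FPKM). T-box factors had 5 of 16, with Mga, Tbx15 (5.05 ± 0.704 FPKM) and Tbx18 (3.60 ± 0.192 FPKM) highest; Tbx18 was at 0.0552, 0 and 0.0127 FPKM in the sgRnf19a libraries. Hox genes had 11 of 39, and the highest lay in posterior positions of their clusters: Hoxc10 (16.6, 13.8 and 16.7 FPKM), Hoxa11 (8.95, 8.43 and 11 FPKM) and Hoxa10 (7.6, 7.23 and 8.56 FPKM).

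The 24 families chosen as usually silent held 2737 genes, of which 2415 (88.2%) were at 0 and 35 (1.28%) were expressed, against 27.8% and 44.8% of all protein-coding genes. No olfactory receptor of 1135 was expressed and 1075 were at 0; the highest, Olfr99, was at 0.113, 0.229 and 0.354 FPKM. Vomeronasal receptors were at 0 in 310 of 329, taste receptors in 32 of 38, immunoglobulin and T cell receptor segments in 455 of 478, defensins in 61 of 64, keratin-associated proteins in 51 of 57, prolactins in 24 of 26, kallikreins in 24 of 27, UDP glucuronosyltransferases in 16 of 19, crystallins in 13 of 16 and lipocalins in 13 of 14, with no member expressed in any of these families. All 22 major urinary proteins were at 0. The highest members of these families stayed under 1 FPKM, with Cryab at 0.516, 0.853 and 0.817 FPKM and Ighm at 0.593, 0.754 and 0.542 FPKM nearest to it.

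The other families had 1 to 6 expressed members each. Cyp4f16 was at 20.5, 24.6 and 19.7 FPKM among 80 cytochrome P450 genes, of which 4 were expressed and 59 silent. Serpinb6a (70.9, 54.8 and 75.6 FPKM) led 6 of 50 expressed serpins, and Pcdhgc3 (30.6, 29.4 and 37.2 FPKM) led 4 of 57 clustered protocadherins, whose shared last exons leave the split among them uncertain. Of 52 lectin-like receptor genes of natural killer cells 6 were expressed, with Klra4 (21.2, 16.2 and 22.6 FPKM) and Klrg2 (8.56 ± 0.554 FPKM) highest, and of 42 Siglec, Fc and paired receptors 4, with Cd300lb (16.1, 15.2 and 16.4 FPKM) and Lilrb4a (8.09 ± 0.815 FPKM) highest. Klra4 and Cd300lb kept their level in the sgRnf19a libraries (14.1, 15.3 and 18.7 FPKM, and 13.1, 14.0 and 13.7 FPKM), whereas Lilrb4a was at 8.10, 0.738 and 1.81 FPKM. Pramef8 (6.82, 7.62 and 6.93 FPKM) was the 1 expressed gene of 50 cancer-testis genes. Cd74 (1.76, 2.62 and 3.05 FPKM) was the 1 of 11 genes listed as MHC class II. It encodes the invariant chain and not a class II molecule. Sprr1a (2.97, 1.84 and 1.73 FPKM) was the 1 of 33 cornified envelope genes and Csn3 the 1 of 45 surfactant, secretoglobin and casein genes. Krt13 and Krt76 (3.36, 3.68 and 5.17 FPKM) were the 2 of 45 hair and skin keratins.

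Lists of cell state gave 19 of 21 glycolysis genes expressed (90.5%, median 65.4 FPKM). The lactate exporter Slc16a3 (102 ± 8.87 FPKM) and the glucose transporter Slc2a1 (75 ± 9.64 FPKM) were high, and Ldhb (0.433 ± 0.131 FPKM) and Slc2a3 (0.583 ± 0.0610 FPKM) were the 2 not expressed, so lactate dehydrogenase RNA was nearly all Ldha. Of 45 oncogenes and tumour suppressors 41 were expressed, with Cdk4 (127, 121 and 146 FPKM), Nfe2l2 (74.3 ± 7.08 FPKM) and Ctnnb1 and Trp53 highest. The 2 lowest were the neighbouring cell cycle inhibitors Cdkn2a (0.150, 0.223 and 0.272 FPKM) and Cdkn2b (0.0432, 0 and 0.112 FPKM). Of 42 genes for secreted matrix and proteases 30 were expressed (71.4%); osteopontin, Spp1, was at 483, 339 and 370 FPKM, Anxa2 at 334, 302 and 321 FPKM and Sparc at 188, 196 and 167 FPKM, while Lama1 and Mmp7 were at 0. Antigen presentation and checkpoint ligands had 14 of 23: H2-D1 (118, 109 and 136 FPKM), H2-K1 (65.7, 50.5 and 53.8 FPKM) and Tapbp (49.0, 41.2 and 44.5 FPKM) followed B2m, while Tap1 was at 3.69 ± 0.560 FPKM and the checkpoint ligand Cd276 at 24.7 ± 0.403 FPKM. The targeted gene of the study, Rnf19a, was at 8.33, 7.51 and 5.47 FPKM here and at 6.91, 6.25 and 5.56 FPKM in the untreated sgRnf19a libraries, and the ranges overlap. It stood in the middle of its family of RBR ubiquitin ligases, 11 of 14 of which were expressed, with Rbck1 (34.7 ± 2.36 FPKM) and Rnf14 (22.9 ± 1.66 FPKM) highest and Rnf144a under 0.1 FPKM.

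The classes were nearly the same in the untreated sgRnf19a libraries. Of the 9827 genes expressed in the control libraries 9543 (97.1%) were expressed there, and of the 6101 silent genes 5493 (90%) were at 0 there. Among the silent genes 76 reached 0.1 FPKM in any sgRnf19a library and 2 reached 1 FPKM, 1 of which has a name, Dynap (1.08, 0.983 and 0.698 FPKM). No difference between these groups was tested.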

How the data were processed

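RNA was rRNA-depleted, made into strand-marked paired-end libraries and sequenced on an Illumina NextSeq, per the labels' protocols. Bowtie2, HTSeq, DESeq2 and the builds mm10 and GRCm39 are named in the submitters' processing notes; no version, role or strand setting of the counting is named there, so overlapping genes on opposite strands are uncertain. The authors deposited a count per Ensembl gene and FPKM per library, per the file headers. Low deposited counts pile up at multiples of 4, so 1 read pair was taken as 4 counts and the values as estimated counts. Of 29456 IDs shared with GENCODE M21 (GRCm38), which gave gene types and exon lengths, 26714 had the same start and end as in the FPKM table. A further 24 per-sample columns (IR libraries and repeated counts) were not used. The FPKM table lists 29549 of 55401 counted genes; the other 25852 were taken as 0, and 1 of them has a count in any library.

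FPKM was used as deposited, with no test: levels are given per library and as mean ± SD. The control libraries differed by more than counting noise (chi-square over degrees of freedom 12.8 to 49.6), so none is a copy. TMM factors came from edgeR 4.0.16 (R 4.3.3) and the rest used Python 3.11.15. The class rule was run on simulated levels set far from its threshold, which checks the code and not the rule. Alternatives were the threshold, the rule on the mean, rescaling, TMM-scaled counts per kilobase, the median, and leaving out each library.

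The 100 gene lists were chosen with earlier results of these data known. Wrong members (casein kinases, for example) were taken out by name, and 2 lists (erythroid genes and X-linked partners) were added, after values were seen. Genes were named by a rule: the 30 highest; per marker list the 4 highest and the first 4; per receptor, ligand or factor family the 3 highest; the 15 highest factors; the highest and any expressed member of silent families; 4 highest and 2 lowest of other lists; and the 10 widest and 5 narrowest ratios between libraries. Names beyond it were chosen after their values were seen. Some genes that the rule names are not reported here.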

Additional observations from a re-analysis of the deposited data

How the results depend on the processing

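The number of expressed protein-coding genes, 9827, ranged from 8694 (threshold 2 FPKM) to 11002 (FPKM rescaled to a common sum over protein-coding genes), and from 9899 to 9975 when a control library was left out. The number of silent protein-coding genes, 6101, became 9551 when silent meant a mean under 0.1 FPKM, and lay between 6384 and 6586 when a library was left out. Of the 30 highest genes, 27 to 30 stayed among the 30 highest under each alternative. Leaving out a library, or counts per kilobase scaled by TMM, moved the expressed count of no list outside 1.5 times; the threshold of 2 FPKM did so for 20 of 102 lists and 0.5 FPKM for 12. Rescaling moved it for 25 lists and the rule on the mean for 1. Of 45 gene levels divided by that of the median expressed gene, 35 moved by more than 1 SD with rescaling, 8 without control 3, and 1 each without control 1 or control 2. Of 17 lists with no expressed member 13 had none under every setting. No paired analysis was possible because the results describe 1 group and come from no test; the shared replicate numbers were not used as a block. Depth limits what a 0 means, and levels of short and long transcripts carry the library trend of control 3.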

Other observations

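Long non-coding RNAs were few: 85 of 5614 lincRNA genes (1.51%) and 45 of 2959 antisense genes (1.52%) were expressed, and lincRNAs took 0.179%, 0.201% and 0.154% of all FPKM in control 1, 2 and 3. The nuclear RNA Malat1 was the highest named lincRNA at 45, 63.0 and 25.9 FPKM, followed by Oip5os1 (23.3, 25 and 18.4 FPKM), and Neat1 of paraspeckles was at 9.28, 10.1 and 5.58 FPKM. Mir17hg, the host RNA of a microRNA cluster, was at 4.77, 6.79 and 5.25 FPKM. The imprinted RNAs H19 (0.271, 0.0987 and 0.0108 FPKM) and Meg3 (0.302, 0.359 and 0.250 FPKM) were intermediate. For both Malat1 and Neat1, which have long transcripts, control 3 was the lowest library.

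The RNA-binding protein gene Igf2bp1 (10.7, 13 and 13 FPKM) and the chromatin gene Hmga2 (11.6, 14.7 and 14.0 FPKM), known from embryonic tissue, were expressed, while Lin28b (mean 0.0220 FPKM) and Igf2 (0.00471 FPKM) were near 0. Axl was high while its ligand gene Gas6 was at 0.171, 0.625 and 0.322 FPKM.

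Processed pseudogenes took 6.08%, 5.40% and 6.93% of all FPKM, with 678 of 9936 expressed. Unprocessed pseudogenes took 6.68%, 7.41% and 4.85%, with 38 of 2640 expressed; their order across the libraries is that of the mitochondrially encoded genes. Reads of near-identical copies cannot be told apart by these counts.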
